A study of Arabidopsis thaliana with 20 samples.

Results

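The genes BRD1 (AT1G20670), BRD2 (AT1G76380), BRD13 (AT5G55040), BRIP1 (AT3G03460) and BRIP2 (AT5G17510) encode subunits that, in Arabidopsis, belong to the SWI/SNF complexes built on the ATPase BRAHMA (BRM). These 5 genes were taken by locus number from the 37899 annotated nuclear genes, of which 27444 are protein-coding, and the choice by locus uses no threshold on a measured value. At each gene, every peak that came within 2 kb of the annotated gene was collected from 12 lists of chromatin immunoprecipitation followed by sequencing (ChIP-seq). The lists came from whole Arabidopsis thaliana seedlings aged 14 days, with an antibody against GFP. Of the 20 samples of the series, 8 (spike-in ChIP-seq and MNase-seq) were not analysed here.

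The 12 libraries made 6 groups of 2 biological replicates, and no group was wild type. BCL7A was the line pBCL7A:BCL7A-GFP in bcl7a, and BCL7B the line pBCL7B:BCL7B-GFP in bcl7b. The same lines with the null allele brm-1 added made the groups BCL7A in brm-1 and BCL7B in brm-1. BRM was the line pBRM:BRM-GFP in brm-1, and BRM in bcl7ab carried bcl7a and bcl7b as well. Each fusion was driven by the promoter of its own gene. The alleles of the 5 genes themselves are not named in the labels of any group.

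SWI/SNF complexes use ATP to slide or evict nucleosomes, and plants assemble separate complexes on BRM, SYD or the MINU ATPases. Bromodomains bind acetylated lysines of histones, and BRD1, BRD2 and BRD13 help to bring BRM complexes to chromatin. BRIP1 and BRIP2 are related to the human GLTSCR1 subunits of the non-canonical BAF complex and are needed to assemble the BRM complex. BCL7A and BCL7B are small subunits shared by the plant SWI/SNF complexes. The question asked of these peaks was whether the genes of BRM-complex subunits were occupied by BRM, BCL7A and BCL7B themselves, and whether that occupancy differed without BRM or without BCL7A and BCL7B.

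The measurement throughout was the fold enrichment that the authors' peak caller gave at the summit of each peak, a ratio of fragments at the summit over a background. A library held 14770 to 18870 nuclear peaks, and the background of the genome was 15.7 to 30.9 fragments per position. Because the 12 lists were not made alike, a peak was also ranked by the percentile of its fold enrichment within its own list, where 100 is the highest peak. The lowest -log10 q was 2.03 to 2.25 in the BCL7A and BCL7B lists and 0.475 to 0.577 in the BRM lists. The caller had used a local background above that of the genome at most BCL7A and BCL7B peaks, whereas 93.4% to 97.8% of BRM peaks stood on the genome background. In any comparison of BRM with BCL7A or BCL7B, the protein and this processing cannot be told apart. No list from plants without GFP was analysed here.

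All 5 genes lie on the minus strand, and the sequences below are therefore the reverse complement of the numbered strand. They were read from the RefSeq assembly TAIR10.1, whose nuclear chromosomes were long enough to hold every peak of the TAIR10 lists. For BRD1, BRD2 and BRD13 the 250 bases before the transcription start site (TSS) are shown, since their strongest peaks spanned or lay beside the TSS. For BRIP2 the 86 bases that separate it from RCP1 are shown, and for BRIP1 the 200 bases around the summits of a peak beyond the end of the gene, where the largest difference tested near the 5 genes was found. None of these stretches overlaps an annotated gene. Capitals mark matches on either strand to the motifs searched, which were the G-box CACGTG, the telobox core AAACCCT, a first site II element, TGGGCC, a second site II element, TGGGCT, and the GA repeat GAGAGA. The first site II element ends with the bases that its reverse complement begins with, so the matches of both strands could overlap, and the GA repeat can overlap itself.
BRD1 promoter, chr1:7168042-7168291: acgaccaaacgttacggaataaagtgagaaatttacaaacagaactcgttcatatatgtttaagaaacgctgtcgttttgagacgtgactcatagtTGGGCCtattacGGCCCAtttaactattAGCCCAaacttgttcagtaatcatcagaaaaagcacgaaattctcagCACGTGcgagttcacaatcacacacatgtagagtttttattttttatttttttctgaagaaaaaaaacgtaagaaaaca
BRD2 promoter, chr1:28654661-28654910: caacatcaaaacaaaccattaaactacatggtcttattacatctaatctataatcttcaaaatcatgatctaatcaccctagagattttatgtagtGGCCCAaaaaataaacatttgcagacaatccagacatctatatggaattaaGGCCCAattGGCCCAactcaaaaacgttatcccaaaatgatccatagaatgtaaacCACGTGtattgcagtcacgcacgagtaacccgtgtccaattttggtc
BRD13 promoter, chr5:22332079-22332328: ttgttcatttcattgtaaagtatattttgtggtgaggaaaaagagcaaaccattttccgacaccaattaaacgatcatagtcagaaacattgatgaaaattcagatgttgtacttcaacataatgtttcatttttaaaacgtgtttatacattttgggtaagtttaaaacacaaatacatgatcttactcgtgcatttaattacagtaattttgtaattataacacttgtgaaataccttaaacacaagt
BRIP2 upstream gap, chr5:5772482-5772567: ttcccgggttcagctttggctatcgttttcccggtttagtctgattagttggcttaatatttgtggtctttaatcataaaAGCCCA
BRIP1 downstream site, chr3:822628-822827: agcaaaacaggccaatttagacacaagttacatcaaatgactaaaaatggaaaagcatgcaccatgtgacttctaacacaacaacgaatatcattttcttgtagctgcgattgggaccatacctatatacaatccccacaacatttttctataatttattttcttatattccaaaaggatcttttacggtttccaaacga

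The promoters of BRD1 and BRD2 each held 1 G-box, which factors of the bHLH and bZIP families bind, and 3 site II elements, which TCP factors bind. In BRD1 the G-box began at -79 bp from the TSS and the site II elements at -154, -142 and -126 bp, the last of them TGGGCT. In BRD2 the G-box began at -47 bp and 3 copies of TGGGCC at -154, -103 and -94 bp. The 250 bp before the TSS of BRD13 held none of the 5 motifs. The same length before BRIP1, which runs into the neighbouring gene, held 1 telobox core, 2 copies of TGGGCC and 1 of TGGGCT, and that before BRIP2 held 1 copy of TGGGCT, at -6 bp. Among the 27444 protein-coding genes, 6.5% held a G-box, 7.3% a telobox core, 13.7% TGGGCC, 12.3% TGGGCT and 20.6% a GA repeat in this window. The BRIP1 downstream site held none of the motifs. In windows of 200 bp centred on the 12031 regions tested for BCL7B with and without brm-1, the shares were 13.2%, 8.9%, 17.0%, 14.5% and 31.5% in the same order. These matches are a description of letters, and no factor was measured.

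All 5 genes had a peak of BCL7A or BCL7B within 2 kb in both libraries of each of the 4 groups, and 4 of 5 had a BRM peak in both libraries with and without BCL7A and BCL7B. The gene without one was BRIP2. Occupancy within 2 kb was common in the genome. In both libraries it was found at 76.1% of protein-coding genes for BCL7A, 78.3% for BCL7A in brm-1, 73.9% for BCL7B and 69.1% for BCL7B in brm-1, and at 67.9% for BRM and 66.0% for BRM in bcl7ab. The members' counts therefore lie near the background. A list of 16 other SWI/SNF genes (ATPases, SWI3, SWP73, ARP and further core subunits) had 16, 16, 15 and 15 genes with a peak in the groups of BCL7A and BCL7B, in the order above. It had 10 with BRM and 11 with BRM in bcl7ab. When a peak was counted only for the gene with the nearest TSS, the 5 genes gave 4, 5, 4 and 4 in the same order for BCL7A and BCL7B, 3 for BRM and 2 for BRM in bcl7ab. Under this stricter count the shares of all protein-coding genes were 45.2%, 47.1%, 43.2% and 37.8% for BCL7A and BCL7B, 37.5% for BRM and 35.6% for BRM in bcl7ab. The 16 other SWI/SNF genes gave 13, 14, 11 and 13 for BCL7A and BCL7B, 4 for BRM and 6 for BRM in bcl7ab. The counts of BCL7A and BCL7B lay above these shares in both lists, as did that of BRM at the 5 genes, and no test was made on 5 genes.

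The genes differed in rank. BRD13 had the highest percentile of the 5 in all 12 libraries, and its top peak never fell under percentile 97.954. Only 8 of the 27444 protein-coding genes, BRD13 included, had a top peak that high in every list. For BRD2 the lowest percentile over the 12 lists was 75.1, reached or exceeded by 1678 genes, for BRD1 it was 63.9 (3392 genes) and for BRIP1 19.5 (11690 genes). The top peak of BRIP1 was not at its own TSS in any library. It lay nearest to the TSS of a neighbouring gene, RGL2 or CYP89A9. BRIP2 had a peak in 9 of the lists. BRD1 and BRD2 could not be ordered, since BRD1 was higher in 6 of 12 libraries. Each of them was higher than BRIP1 in 10 of 12 libraries and higher than BRIP2 in 6 of the 9 that listed a peak at BRIP2. The order of BRD1 and BRIP1 depended on the background used. Peaks were also ranked by summit fragments over the genome background, a ratio chosen after the data had been seen. The lowest percentile was then 59.2 for BRD2 (4933 genes), 51.9 for BRIP1 (6162 genes) and 45.7 for BRD1 (7145 genes).

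**Figure D1:**
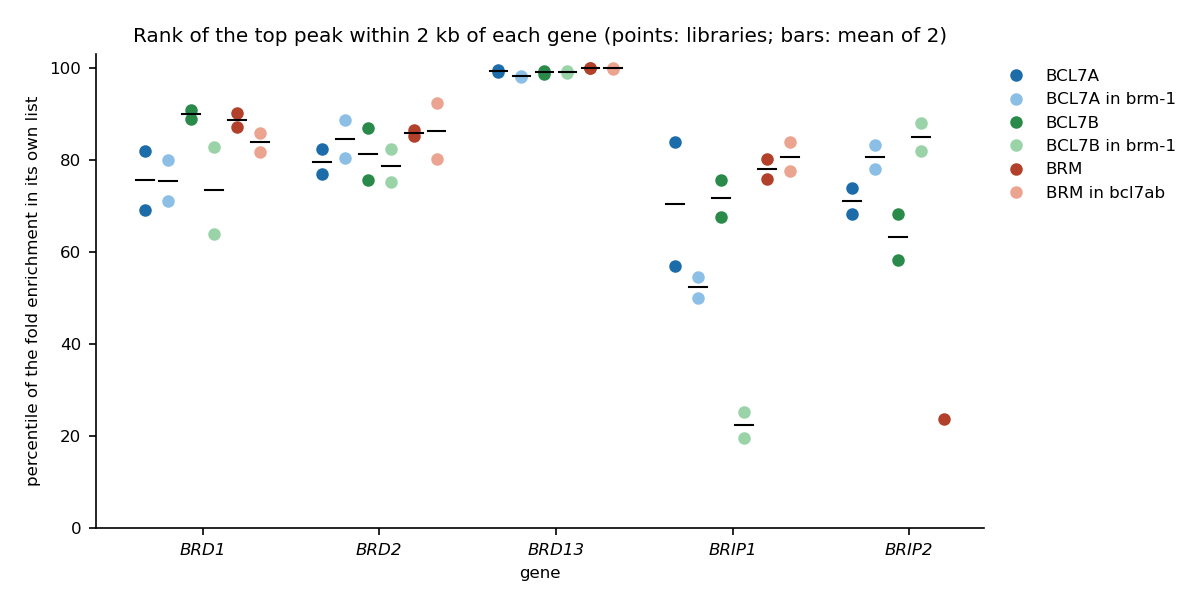
Percentile of the top peak within 2 kb of each gene (vertical axis, 0 to 100 within the list of that library) for the 5 genes (horizontal axis), with 1 point per library, colours for the 6 groups and bars for the mean of 2 libraries. BRD13 lies at percentile 97.954 or higher in all 12 libraries, BRIP1 drops to 19.5 and 25.3 for BCL7B in brm-1, and BRIP2 has a single BRM point at 23.8. The BRIP1 points are peaks nearest to the TSS of RGL2 or CYP89A9.

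BRD13, a bromodomain subunit gene on chr5:22326940-22332078, carried a peak with its summit inside its 5′ untranslated region in every library. The summit lay 187 and 204 bp downstream of the TSS for BCL7A, 253 and 230 bp for BCL7A in brm-1, 242 and 228 bp for BCL7B, and 235 and 250 bp for BCL7B in brm-1. It lay at 262 and 261 bp for BRM and at 235 and 265 bp for BRM in bcl7ab, so all 12 summits fell within the same short stretch of the gene. The fold enrichment was 7.28 and 7.81 for BCL7A (percentiles 99.1 and 99.5), and 6.38 and 6.37 in brm-1 (98.3 and 98.0). For BCL7B it was 8.19 and 9.16 (98.7 and 99.4), and 6.78 and 6.27 in brm-1 (99.3 and 98.9). Both brm-1 libraries lay below both libraries without brm-1 for each protein in fold, whereas the percentiles of BCL7B overlapped. The BRM folds were 12.4 and 11.8 (percentiles 99.95 and 99.9), and in bcl7ab they were 12.6 and 11.2 (99.97 and 99.8), which overlap.

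The higher BRM fold at BRD13 went with the background used. The summit held 282 and 298 fragments for BCL7A (95% exact Poisson intervals 250 to 317 and 265 to 334), and 336 and 339 for BRM (301 to 374 and 304 to 377). These intervals cover counting error only. The local background of the BCL7A peaks was 1.86 and 1.83 times that of the genome, that of the BCL7B peaks 2.09 and 2.21 times, and that of the BRM peaks 1.0 times. Over the genome background alone, the ratio was 13.3 and 14.0 for BCL7A, 16.6 and 19.7 for BCL7B and 12.4 and 11.8 for BRM, which puts BRM below both. In brm-1 it was 12.04 and 11.6 for BCL7A and 11.0 and 9.90 for BCL7B. This second ratio was chosen after the data had been seen. Ranked by it, the top peak of BRD13 stood at percentile 99.3 or higher in all 12 lists, a level that 11 genes reached.

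**Figure D2:**
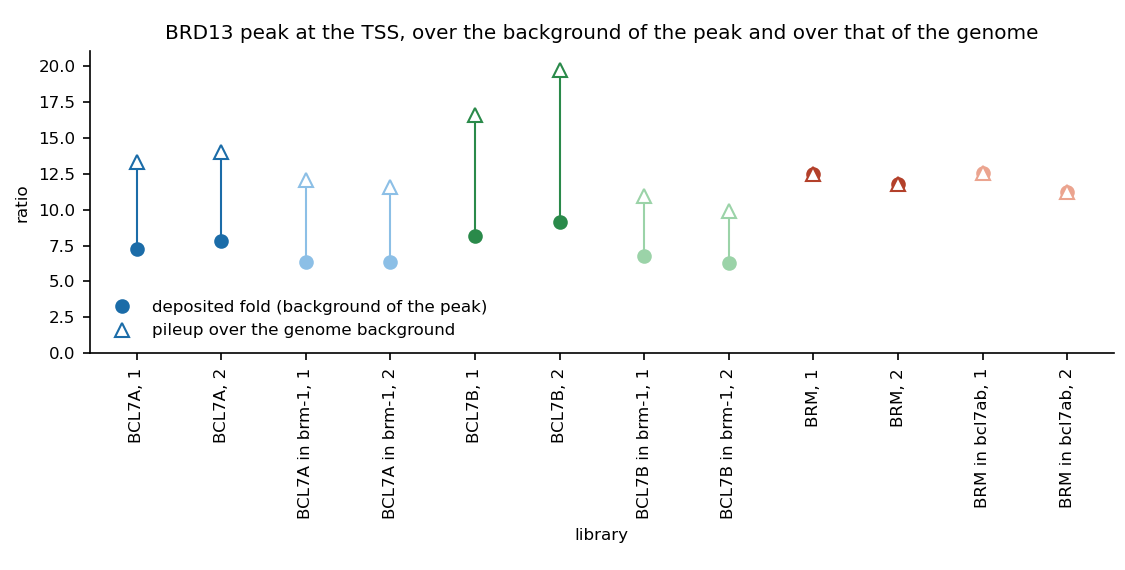
Enrichment at the BRD13 start site (vertical axis, ratio) in each of the 12 libraries (horizontal axis), as the deposited fold over the background of the peak (filled circles) and as the summit pileup over the genome background (open triangles). The deposited fold is highest for the 4 BRM libraries (11.2 to 12.6), whereas over the genome background the highest are BCL7B (16.6 and 19.7).

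Peaks at BRD13 were wide for BRM, at 2205 and 2520 bp, and 2670 and 2774 bp in bcl7ab, which put them at width percentiles 86.6 to 90.5 of their lists. The BCL7A and BCL7B peaks were 710 to 1079 bp wide. A second peak lay around the end of the gene in all 12 libraries, 5133 to 5691 bp from the TSS of BRD13 and nearest to the TSS of MYB120, a gene for a pollen tube transcription factor. Its percentiles were 25.8 to 65.8 for BCL7A and BCL7B and 32.7 to 47.6 for BRM. BCL7A in brm-1 replicate 2 also listed a faint peak at -883 bp, at a fold of 1.57.

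BRD1, on chr1:7164082-7168041, had a peak at the TSS in all 12 libraries. BCL7A and BCL7B summits lay at -19 and 80 bp and at 22 and 26 bp, and in brm-1 at 36 bp in both BCL7A libraries and at 67 and 109 bp for BCL7B. Of these 8 summits, 6 fell in the 5′ untranslated region, 1 outside the gene and 1 in a coding exon. The BRM summits lay farther in, at 306 and 358 bp, and in bcl7ab at 159 and 278 bp, all in a coding exon. The fold enrichment of BCL7B was 5.51 and 5.83 (percentiles 89.0 and 90.9), and 3.76 and 3.07 in brm-1 (82.8 and 63.9), so the groups did not overlap on either scale. That of BCL7A was 3.69 and 4.36 (69.1 and 82.0), and 3.60 and 4.06 in brm-1 (71.0 and 79.9), which overlap. For BRM it was 4.21 and 4.65 (87.1 and 90.2), and 4.10 and 3.73 in bcl7ab (85.8 and 81.8), lower in both libraries.

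A second BRM peak lay beyond the end of BRD1, 4248 to 4331 bp from its TSS and -107 to -24 bp relative to the start of AT1G20657, annotated as a transcribed pseudogene. It stood at percentiles 67.8 and 80.8 for BRM and 75.8 and 66.1 for BRM in bcl7ab. None of the 8 BCL7A and BCL7B libraries listed a peak there.

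BRD2, on chr1:28651069-28654660, shares its upstream region with PUB43, which encodes a U-box ubiquitin ligase and is transcribed the other way from a TSS 548 bp away. A single broad peak covered both starts in every library, at width percentiles 95.1 to 97.5 of the BCL7A and BCL7B lists. Its summit fell at PUB43 in some libraries and at BRD2 in others. For BCL7A it lay at -634 and -33 bp from the BRD2 TSS, for BCL7A in brm-1 at 111 and 73 bp, for BCL7B at -11 and -633 bp and for BCL7B in brm-1 at -635 and 100 bp. For BRM in bcl7ab it lay at -750 and 417 bp, so that in 4 of the 6 groups the replicates fell on different starts. The BRM summits lay at 328 and 386 bp, in a coding exon of BRD2. The fold enrichment was 4.02 and 4.37 for BCL7A, 4.58 and 4.09 in brm-1, 5.27 and 4.47 for BCL7B and 3.44 and 3.70 in brm-1. It was 4.14 and 3.96 for BRM, and 3.58 and 5.14 in bcl7ab, where the higher value came with a peak 3634 bp wide. Only for BCL7B did the folds of the groups with and without the mutation not overlap, and there the percentiles did (86.8 and 75.6 against 75.1 and 82.4). BRM in bcl7ab replicate 1 also listed a faint peak 3637 bp from the BRD2 TSS, nearest to the TSS of AT1G76370. Its fold was 1.51 (percentile 4.05).

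BRIP1, on chr3:822896-824546, was by deposited fold the weakest of the genes at its own TSS. Its start lies 5 bp from the end of CYP89A9, a cytochrome P450 gene of chlorophyll breakdown on the same strand. BCL7A had peaks at -47 and -115 bp with folds of 1.97 and 2.00 (percentiles 3.87 and 4.01), and BCL7A in brm-1 at -52 and -75 bp with 2.32 and 2.15 (20.1 and 10.8). BCL7B had peaks at -335 and -516 bp with 2.18 and 2.25 (5.79 and 8.43), and BCL7B in brm-1 at 4 and 46 bp with 2.15 and 2.03 (12.4 and 7.59). The local background of these peaks was 1.44 to 1.74 times that of the genome. Over the genome background alone their percentiles were 30.5 to 49.2. On that ratio BRIP1 equalled BRD1 in BCL7A in brm-1 replicate 1 (49.2 each). It stood above BRIP2 in BCL7B replicate 2 (39.0 and 35.0) and below BRIP2 in the other BCL7A and BCL7B libraries. No BRM library had a summit within 1 kb of this TSS. Another peak lay at the TSS of CYP89A9, with BCL7A and BCL7B summits at -2117 to -2037 bp, in 7 of the 8 libraries. BCL7B in brm-1 replicate 1 lacked it. The BRM peaks nearest on that side had their summits inside CYP89A9, at -1668 and -1471 bp, and at -1654 and -1676 bp in bcl7ab. A further BRM peak at 4249 to 4775 bp lay inside RGL2, a DELLA gene that represses gibberellin responses in seeds.

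The strongest BCL7A and BCL7B site near BRIP1 lay between the end of the gene and the start of RGL2, with summits 1752 to 1884 bp from the BRIP1 TSS in all 12 libraries. It is the sequence printed above as the downstream site, and it stood at -1142 to -1010 bp from the RGL2 TSS. The fold of BCL7A was 4.42 and 3.32 (percentiles 83.9 and 57.0), and 2.97 and 3.14 in brm-1 (50.02 and 54.6). The fold of BCL7B was 4.06 and 4.47 (67.7 and 75.6), and 2.28 and 2.35 in brm-1 (19.5 and 25.3). For BRM it was 2.77 and 3.26 (64.5 and 75.7), and 2.41 and 2.66 in bcl7ab (54.1 and 62.8). In each of the 3 pairs of groups both mutant libraries lay below both others in fold, and the gap was widest for BCL7B, from 4.27 ± 0.29 to 2.32 ± 0.05 (mean ± SD, n = 2 each). The summit held 115 and 148 fragments for BCL7B (95% exact Poisson intervals 94.9 to 138 and 125 to 174) and 74 and 82 in brm-1 (58.1 to 92.9 and 65.2 to 102), although the genome background was higher in brm-1.

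BRIP2, on chr5:5769318-5772481, had a peak of BCL7A and BCL7B at the TSS and almost none of BRM. It starts 86 bp from the end of RCP1, which encodes the maltose exporter of chloroplasts. The 8 summits of BCL7A and BCL7B lay between 21 and 99 bp downstream of the TSS, in the 5′ untranslated region or, for some transcripts, just outside it. The fold was 3.66 and 3.93 for BCL7A (percentiles 68.3 and 73.9), and 3.88 and 4.27 in brm-1 (77.9 and 83.3). It was 4.07 and 3.66 for BCL7B (68.1 and 58.2), and 3.71 and 4.01 in brm-1 (82.0 and 88.0). In fold the groups overlapped for both proteins, while in percentile both brm-1 libraries lay above both others. BRM replicate 1 listed a faint peak at 391 bp, in a coding exon, with a fold of 1.85, percentile 23.8 and 49 fragments at the summit (95% exact Poisson interval 36.3 to 64.8). BRM replicate 2 and both libraries in bcl7ab listed none within 2 kb. The lists do not show how much signal lay below their limits, and the BRM lists had the lower limit of -log10 q. Peaks in every one of the 8 BCL7A and BCL7B libraries, in at most 1 BRM library and in no bcl7ab library were found at 4.54% of protein-coding genes (1247), and BRIP2 was the only one of the 5.

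**Figure D3:**
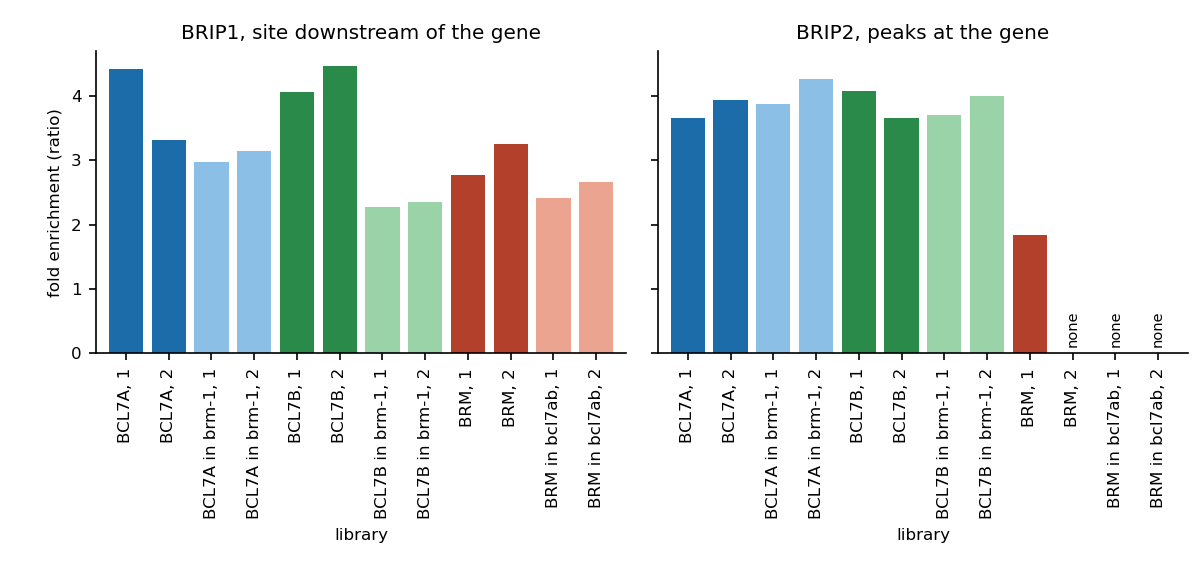
Deposited fold enrichment (vertical axis, ratio) in each of the 12 libraries (horizontal axis) at the site downstream of BRIP1 (left) and at the BRIP2 gene (right), with colours for the 6 groups and "none" where no peak was listed. The BRIP1 site falls to 2.28 and 2.35 for BCL7B in brm-1, while BRIP2 keeps 3.71 and 4.01 there and has 1 BRM bar at 1.85.

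Summits of BRM lay on the gene side of those of BCL7A and BCL7B. In the 3 genes with a summit within 1 kb of the TSS in all 6 libraries without an added mutation (BRD1, BRD2 and BRD13), both BRM summits were farther downstream than all 4 BCL7A and BCL7B summits. The same held for 53.1% of the 8893 genes with such summits, so the order was common in the genome. The distance differed among the genes. At BRD13 the BRM summits lay 262 and 261 bp from the TSS against at most 242 bp for BCL7A and BCL7B, and at BRD1 306 and 358 bp against at most 80 bp.

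**Figure D4:**
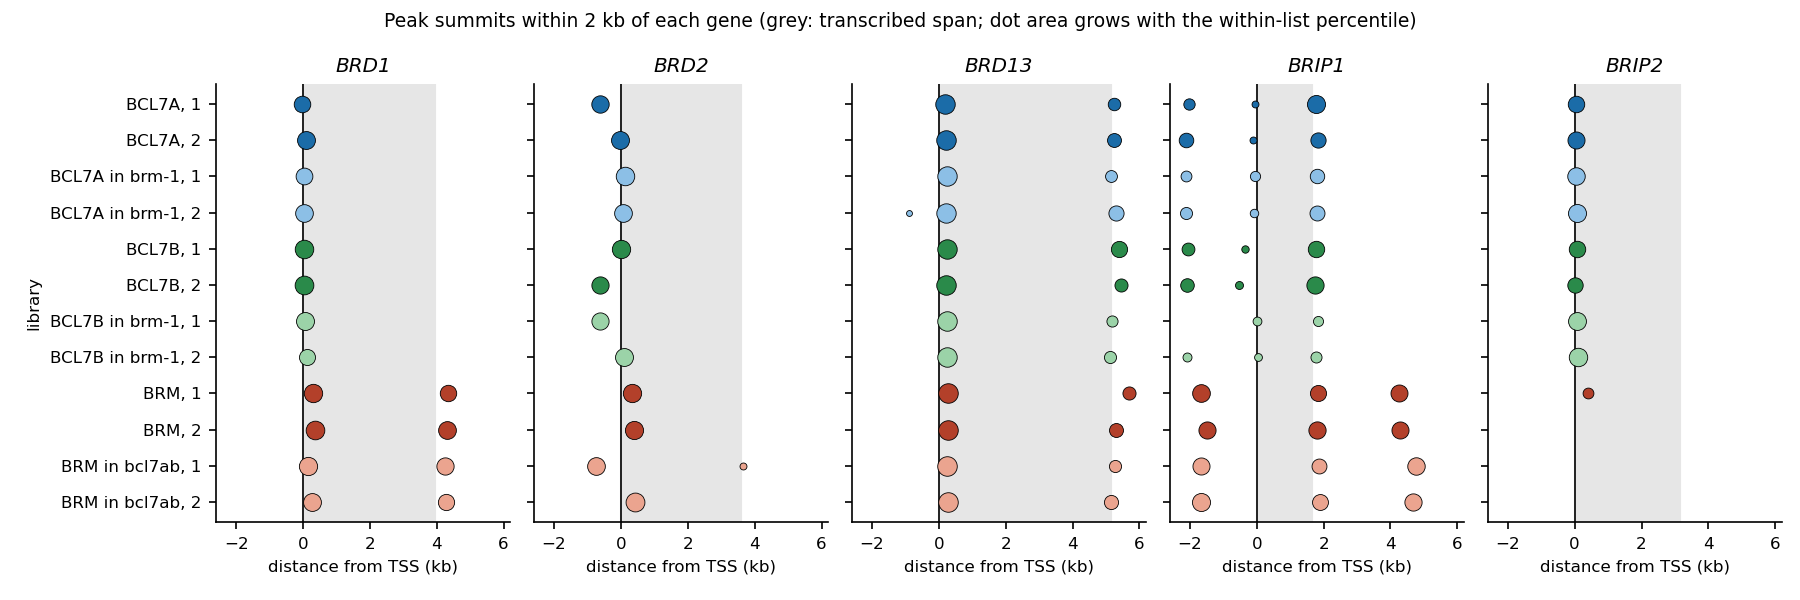
Position of each peak summit within 2 kb of the 5 genes (horizontal axis, kb from the TSS of the gene, positive downstream; vertical axis, library), with the transcribed span in grey and the dot area growing with the within-list percentile. All 12 BRD13 summits near the TSS lie between 187 and 265 bp, BRD2 summits fall on both sides of the TSS, and only BRM has a second peak beyond BRD1.

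To test the differences, log2 fold enrichment was compared in regions that had a peak in all libraries of a comparison, after the median of each library was set to 0, with limma and Benjamini-Hochberg adjustment over all regions. Values are therefore relative to the median region. Two-sided exact permutation of 2 libraries against 2 cannot give a p under 0.333, so the tests rest on the spread that limma shares across regions. The comparisons share libraries, and their values stand side by side only. In all of them the TSS region of BRD2 also covered the start of PUB43. Its value in a library was the fold at the summit listed there, which lay at either start.

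Without BRM, none of the 5 genes changed for BCL7A at the TSS. Over 14934 regions, 1.42% were lower and 1.19% higher at an adjusted p below 0.05 in limma, and without centring the split was 2.18% lower and 0.857% higher. The log2 difference was -0.20 for BRD13 (SE 0.12, adjusted p = 0.401), 0.21 for BRIP1 (SE 0.12, adjusted p = 0.389) and 0.14 for BRIP2 (SE 0.12, adjusted p = 0.597). BRD1 and BRD2 gave -0.03 and 0.08. None of the 5 had an unadjusted p under 0.05, against 17.6% of all regions. The 95% intervals of the 5 differences reached from -0.45 to 0.46, and differences within that range cannot be told from none. At the BRIP1 downstream site the difference was -0.29 (SE 0.13, adjusted p = 0.263). Leaving out BCL7A replicate 1 moved it to -0.0822, and leaving out replicate 2 of the same group moved it to -0.50 (adjusted p = 0.0845).

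For BCL7B, BRIP2 was higher and the BRIP1 downstream site lower in brm-1, relative to the median region. This comparison had many calls, at 11.6% lower and 12.7% higher of 12031 regions. On the percentile rank it had 0, so no region could keep a call on that scale, and a loss there does not single out a region. The median region itself fell by 0.36 on the log2 scale, and without centring 56.9% of regions were lower and 0.906% higher. BRIP2 rose by 0.38 (SE 0.13, adjusted p = 0.0339 in limma), but its deposited fold was 3.87 ± 0.29 without brm-1 and 3.86 ± 0.21 with it (mean ± SD, n = 2 each). Without centring its difference was -0.0011, so the call says that it did not share the fall of the median region. Leaving out any 1 of the 4 libraries ended the call, with adjusted p from 0.0691 to 0.211, and the percentile rank ended it too (adjusted p = 0.124).

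The BRIP1 downstream site fell by 0.50 on the log2 scale beyond the median region (SE 0.13, adjusted p = 0.00782 in limma), and by 0.88 without centring (adjusted p = 2.7e-05). The call was lost without BCL7B replicate 2 (adjusted p = 0.0693), without BCL7B in brm-1 replicate 2 (adjusted p = 0.0507) and on the percentile rank (adjusted p = 0.0678). Relative to the median region, the TSS region of the same gene went the other way, with 0.30 (SE 0.13, adjusted p = 0.0868 in limma), and did not pass. Without centring its difference was -0.0854, lower as at the downstream site. The summits compared there differed in place, from -516 to 46 bp. BRD1 had -0.36 (SE 0.13, adjusted p = 0.0515), which passed under the limit of 5 on -log10 q (0.0469), with the replicate number as a block (0.0401) and without BCL7B in brm-1 replicate 1 (0.0344). BRD2 and BRD13 gave -0.06 and -0.03, and both passed as lower without centring, with -0.45 and -0.41, as BRD1 did with -0.74. Of the 5 TSS regions, 1 was called and 3 had an unadjusted p under 0.05, against 37.7% of all regions, with a median of -0.03.

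The 16 other SWI/SNF genes gave 15 TSS regions for this comparison, of which 3 were higher, none was lower and 5 had an unadjusted p under 0.05 in limma, a count near the 37.7% of all regions, with a median of 0.13. The lowest adjusted p belonged to BSH, the SNF5-type core subunit, with 0.65 (SE 0.13, adjusted p = 0.00146), and to LFR, an armadillo-repeat subunit, with 0.50 (SE 0.13, adjusted p = 0.00878). The 3 higher regions are so relative to the median region, which fell by 0.36 without centring. A gain of equal size in deposited fold does not follow. In the other comparisons the list gave 0 calls of 16 for BCL7A, 0 of 6 for BRM, 1 of 15 for BCL7B against BCL7A and 0 of 15 for the difference of the brm-1 effects. At an unadjusted p under 0.05 these were 2, 2, 3 and 2, where 17.6%, 21.1%, 14.3% and 18.5% of all regions reached it. The 1 call was the BCL7B gene itself, whose promoter the BCL7B line also carries in its transgene, with 1.02 (SE 0.15, adjusted p = 0.00994 in limma). The part of the transgene copy in this difference was not tested.

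Without BCL7A and BCL7B, BRM changed at none of the 4 regions tested. Of 11047 regions, 0.625% were lower and 1.07% higher, and without centring 1.56% and 1.29%. BRD1 gave -0.14 (SE 0.12, adjusted p = 0.549 in limma), BRD2 0.12 (SE 0.16, adjusted p = 0.685) and BRD13 0.01 (SE 0.12, adjusted p = 0.979). At BRD2 the value was -0.13 without BRM in bcl7ab replicate 2 and 0.36 without replicate 1 of that group (adjusted p = 0.28), and neither passed. The region nearest to the BRIP1 start had its summits inside CYP89A9, at -1676 to -1471 bp, and gave 0.10 (SE 0.13, adjusted p = 0.689). None of the 4 had an unadjusted p under 0.05, against 21.1% of all regions, and their 95% intervals reached from -0.41 to 0.46. The BRIP1 downstream site gave -0.21 (SE 0.13, adjusted p = 0.378) and -0.0851 to -0.34 when a library was left out, and the peak beyond BRD1 -0.05. BRIP2 could not be tested for want of BRM peaks.

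BCL7B and BCL7A did not differ at any of the 5 genes past the threshold, in a comparison in which 0.00% of 14573 regions were lower and 0.0823% higher for BCL7B. The split of regions lower and higher was 7 and 358 without centring, 236 and 508 on the pileup over the genome background and 111 and 125 with the replicate number as a block. BRD1 had the largest difference, 0.38 higher for BCL7B (SE 0.13, unadjusted p = 0.00752, adjusted p = 0.192 in limma), and it was the 1 gene of the 5 with an unadjusted p under 0.05, which 14.3% of all regions had. Without centring it passed, with 0.50 (adjusted p = 0.0454), where the median region was 0.13 higher for BCL7B. The other 4 genes lay between -0.09 and 0.10.

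The brm-1 effects on BCL7B and BCL7A were also compared with each other. Of 11586 regions, 0.363% had a lower and 0.371% a higher effect for BCL7B, against 32.3% and 0.147% without centring. None of the 5 genes passed, and none had an unadjusted p under 0.05 in limma, against 18.5% of all regions. BRD1 gave -0.32 (SE 0.18, adjusted p = 0.357), BRIP2 0.25 (SE 0.17, adjusted p = 0.447), BRD13 0.18 (SE 0.16, adjusted p = 0.588), BRD2 -0.14 and BRIP1 0.10. Without centring BRD1 and BRD2 passed, with -0.67 (adjusted p = 0.0113) and -0.49 (adjusted p = 0.0377). At the BRIP1 downstream site the difference was -0.20 (SE 0.19, adjusted p = 0.598). It passed without centring, with -0.55 (adjusted p = 0.0302), where the median region was itself at -0.33. Leaving out BCL7A replicate 1 gave -0.42 and leaving out BCL7A replicate 2 gave 0.0059, and neither passed. Relative to the median region, the effect on BCL7B at that site and at BRIP2 was therefore not shown to differ from that on BCL7A.

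**Figure D5:**
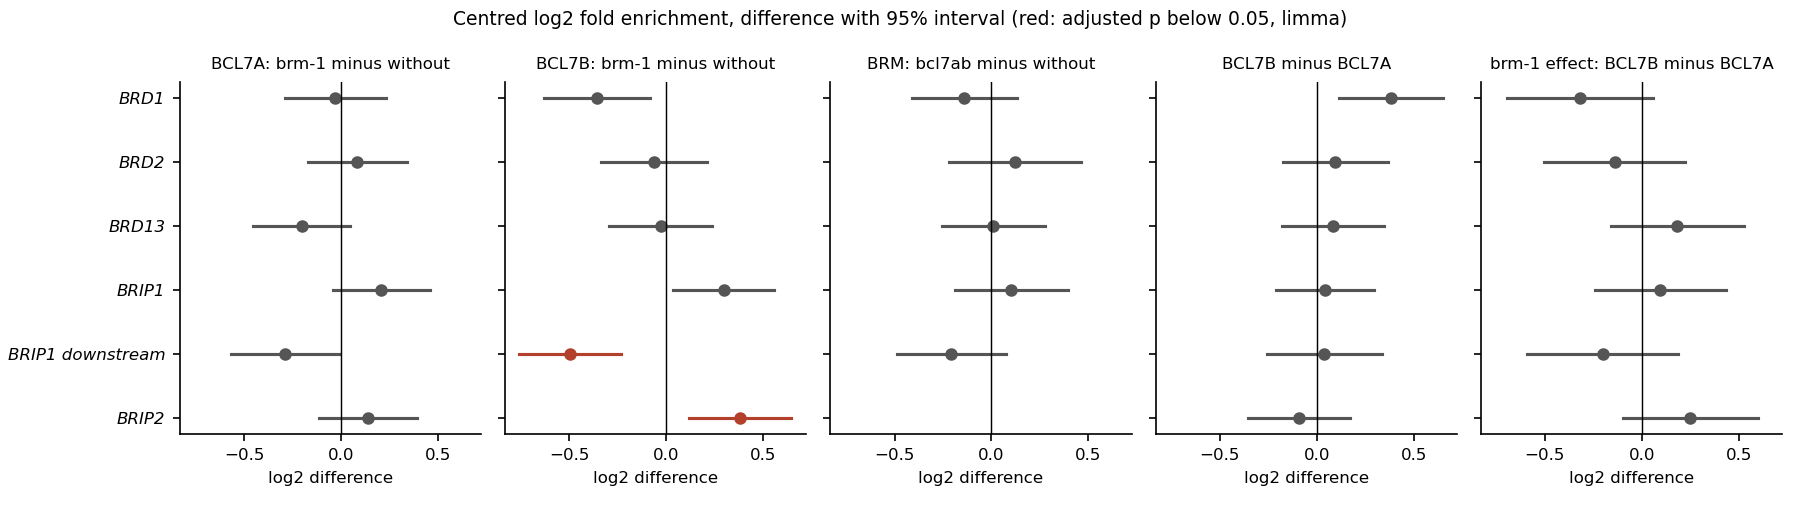
Difference in centred log2 fold enrichment (horizontal axis) with its 95% interval at the TSS region of each gene and at the BRIP1 downstream site (vertical axis), in the 5 comparisons named above the panels, with red for an adjusted p below 0.05 in limma. The red points are BRIP2 at 0.38 and the BRIP1 downstream site at -0.50, both for BCL7B in brm-1, and in the BRM panel the BRIP1 row is the region with summits inside CYP89A9. The BRD2 row is a region that also covers the PUB43 start.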

How the data were processed

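The authors trimmed reads with fastp, mapped them to TAIR10 with Bowtie 2, kept unique and perfect matches, removed duplicates and called peaks with MACS2 (version 2.1.1 in the submitters' processing notes) in each library on its own. The deposited lists give a fold enrichment (the ratio of fragments at the summit over the background), the -log10 p and -log10 q, a score that was not used, and the summit. The limits in the lists differ from the single q-value limit that the methods of the study state, and the methods do not say why. The BCL7A and BCL7B files hold further columns with intervals that no source describes, which were not used.

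Peaks were assigned to a gene when they came within 2 kb of it (RefSeq annotation of TAIR10.1), and a summit offset was its distance from the TSS along the gene. The summit pileup was recovered from fold and p for 100% of nuclear peaks in each list. The misfit allowed was 0.01 in -log10 p, and more, in proportion to -log10 p, at the strongest peaks, those at the BRD13 start included. Regions that overlapped by 1 bp or more in all libraries of a comparison were tested with limma 3.58.1 in R 4.3.3 on log2 fold, median centred per library, and a TSS region was one within 500 bp of the TSS. The procedure was checked on simulated data. Alternatives were no centring, quantile normalization, pileup over the genome background, percentile rank, a -log10 q of 5 or more, summits within 200 bp, the replicate number as a block, and leaving out each library. A second ranking, by pileup over the genome background, was added after the data were seen.

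The text names the 5 genes, the genes whose TSS is nearest to a peak near them, and, from the list of 16 SWI/SNF genes, the 2 with the lowest adjusted p where it passed. The genes and lists were chosen with earlier results of these data known. Regions without a peak in a library could not be tested, so a lost peak enters only the counts. Depth is known only as fragments at summits and as the genome background, and Poisson intervals cover counting error only.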

Additional observations from a re-analysis of the deposited data

How the results depend on the processing

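Which of the 5 genes had a peak in both libraries was the same with a window of 1 kb, with the summit required in the window and under a limit of 5 on -log10 q, whereas counting only the nearest TSS left 2 genes for BRM in bcl7ab. The number of TSS regions called for BCL7B in brm-1, 1 in the report, was 3 without centring, 2 under the limit of 5 on -log10 q, 0 on the percentile rank, and 0 to 1 when a library was left out, the 1 being BRD1 and not BRIP2. Without centring, BCL7B against BCL7A called 1 and the difference of the brm-1 effects 2. The numbers of the replicates did not pair the samples (correlation of deviations -0.0218 to -0.0001), and with the replicate number as a block BCL7B in brm-1 called 2 of 5, BRD1 (adjusted p = 0.0401 in limma) and BRIP2 (0.0279). The block changed no other call at the 5 genes.

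Some differences changed sign, and of these only BRIP2 for BCL7B in brm-1 had been called. For BCL7B in brm-1 these were BRD2 on the pileup over the genome background (0.16), BRD13 under quantile normalization (0.0504) and on the percentile rank (0.0713 percentile points), and BRIP1 (-0.0854) and BRIP2 (-0.0011) without centring. For BRM in bcl7ab BRD13 turned to -0.0296 without centring, to -0.0109 percentile points on the rank and to -0.0086 with a -log10 q of 5 or more. For BCL7B against BCL7A they were BRD2 on the pileup (-0.0030), BRD13 under quantile normalization (-0.047) and on the rank (-0.24 percentile points), and BRIP2 without centring (0.0247). For the difference of the brm-1 effects they were BRD13 without centring (-0.17) and on the pileup (-0.11), BRIP1 without centring (-0.25), under quantile normalization (-0.0706) and on the rank (-8.63 percentile points), and BRIP2 without centring (-0.10). When a library was left out, log2 differences ranged from -0.15 to 0.0841 for BRD1 and -0.0056 to 0.18 for BRD2 for BCL7A in brm-1, and from -0.19 to 0.0458 for BRD2 and -0.12 to 0.0441 for BRD13 for BCL7B in brm-1. They ranged from -0.13 to 0.36 for BRD2 and -0.10 to 0.10 for BRD13 for BRM, and from -0.0289 to 0.22 for BRD2 for BCL7B against BCL7A. The causes were not tested.

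Over all regions, 389, 2922, 187, 12 and 85 were called for BCL7A in brm-1, BCL7B in brm-1, BRM in bcl7ab, BCL7B against BCL7A and the difference of the brm-1 effects. The percentile rank called 0 in each. Without centring the last 4 were 6957, 314, 365 and 3756, and on the pileup all but BRM moved, to 852, 5491, 744 and 1198. Quantile normalization gave 59, 7 and 10 for the last 3, and a -log10 q of 5 or more gave 474 for BRM and 24 for BCL7B against BCL7A. The block gave 783, 462, 236 and 54 for all but BCL7B in brm-1. Leaving out a library gave 88 to 251, 1195 to 1734, 66 to 381, 0 to 121 and 2 to 47. Lists without values below their limit bound what depth can show at BRIP2.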
